A study of Homo sapiens with 6 samples.

Results

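The LIN28 RNA-binding proteins, the HMGA chromatin proteins, the IGF2BP mRNA-binding proteins and the enzymes that cut or degrade microRNA precursors were looked up among H3K4me3 peak calls from BE(2)-C cells. The 10 genes, LIN28A, LIN28B, HMGA1, HMGA2, IGF2BP1, IGF2BP2, IGF2BP3, DIS3L2, DROSHA and DICER1, form a fixed list of names and were matched by symbol, out of 16500 distinct names in the files. Of the 10, 9 occurred in at least 1 file, and LIN28A occurred in none under its symbol or an older one. BE(2)-C cells are an established line from a human neuroblastoma, and they carry extra copies of MYCN, the gene for the transcription factor N-Myc. One group had received control siRNA and the other WDR5 siRNA-1, both for 24 hours. WDR5 is a subunit of the complexes that methylate lysine 4 of histone H3, and H3K4me3, the trimethyl form, marks active promoters. Each siRNA had 1 H3K4me3 library, and the 2 IgG and 2 input libraries were not used here.

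The measurement is a call. A gene is listed with a library when the authors found H3K4me3 enriched as a peak no further than 1 kb from its transcription start site, and no height, read number or p-value accompanied the call. The depth behind each call is therefore unknown, and a missing name, which can also come from the naming or annotation the authors used, does not show absence of the mark. With 1 library per siRNA there is no replicate error and no test, and each value describes these libraries. The control library listed 13618 distinct names and the WDR5 siRNA library 11870. All 10 neuroblastoma markers looked up were in the control list. Of these, 8 (HAND2 and GATA3 among them) were also in the WDR5 siRNA list, and TH and DBH were not. Of 20 markers of blood, epithelial, liver, muscle, fibroblast and Schwann cells, 16 were in neither list, KRT18, COL1A1 and PDGFRB were listed with control siRNA only and ERBB3 was listed with both. The files hold no measure of WDR5 depletion.

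MicroRNAs of the let-7 family are cut from a primary transcript in the nucleus by DROSHA and from a hairpin precursor in the cytoplasm by DICER1. LIN28A and LIN28B bind let-7 precursors and block their maturation. Terminal uridyltransferases can add uridines to a precursor bound by LIN28A, and the exonuclease DIS3L2 degrades the tailed precursor. HMGA2, LIN28B and the IGF2BP genes are themselves known let-7 targets, so the genes described here lie on both sides of the same microRNA family. In neuroblastoma, LIN28B is known as an oncogene that keeps let-7 low and N-Myc high.

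The let-7 sequences are given first because LIN28, DROSHA, DICER1 and DIS3L2 all act on them. All 12 let-7 family genes (MIR98 included) matched the RefSeq table and shared 1 seed, GAGGUAG, across 9 distinct mature sequences. Capitals mark the seed, bases 2 to 8 from the 5′ end, by which the microRNA pairs with its targets.
hsa-let-7a-5p: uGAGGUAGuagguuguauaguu
hsa-let-7d-5p: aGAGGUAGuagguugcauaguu
hsa-let-7e-5p: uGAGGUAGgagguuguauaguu
hsa-miR-98-5p: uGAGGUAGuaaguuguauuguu
LIN28 zinc knuckles are known to bind a GGAG element in the precursor. The letters GGAG occurred after the 5p arm in 9 of the 12 precursors and not in MIRLET7A3, MIRLET7B or MIR98. A precursor with the letters (in capitals) and one without them are given, both from GRCh38.p14.
MIRLET7A1 hairpin: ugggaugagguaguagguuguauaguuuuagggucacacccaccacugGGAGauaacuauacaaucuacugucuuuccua
MIRLET7A3 hairpin: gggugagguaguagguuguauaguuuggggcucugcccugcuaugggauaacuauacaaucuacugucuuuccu
The deposited lists named none of these 12 microRNA genes in either library. They held 0 microRNA gene names of any kind, host transcripts aside, so the absence says nothing about let-7 in particular. Of their host and cluster transcripts, MIRLET7BHG, HUWE1 and WDR82 were listed in both, and MIRLET7DHG, MIR100HG and MIR99AHG were in neither.

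Of the 10 genes, 8 had a peak with control siRNA and 6 had one with WDR5 siRNA. Of all 16500 distinct names, 13618 were listed with control siRNA and 11870 with WDR5 siRNA. LIN28B, HMGA1, IGF2BP1, IGF2BP3, DIS3L2 and DROSHA were listed in both libraries. HMGA2 and IGF2BP2 were listed with control siRNA and not with WDR5 siRNA, and LIN28A and DICER1 were in neither list. No gene of the set was listed only with WDR5 siRNA. The 2 control-only genes were 25.0% of the 8 with a control peak (exact 95% interval over genes 3.19 to 65.1%). Of all control names, 13.5% were control-only, a share that lies inside this interval. With 8 genes the interval is wide, so it cannot decide whether the genes differ from all names. The interval treats genes as independent draws and covers neither library nor replicate error.

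**Figure D1:**
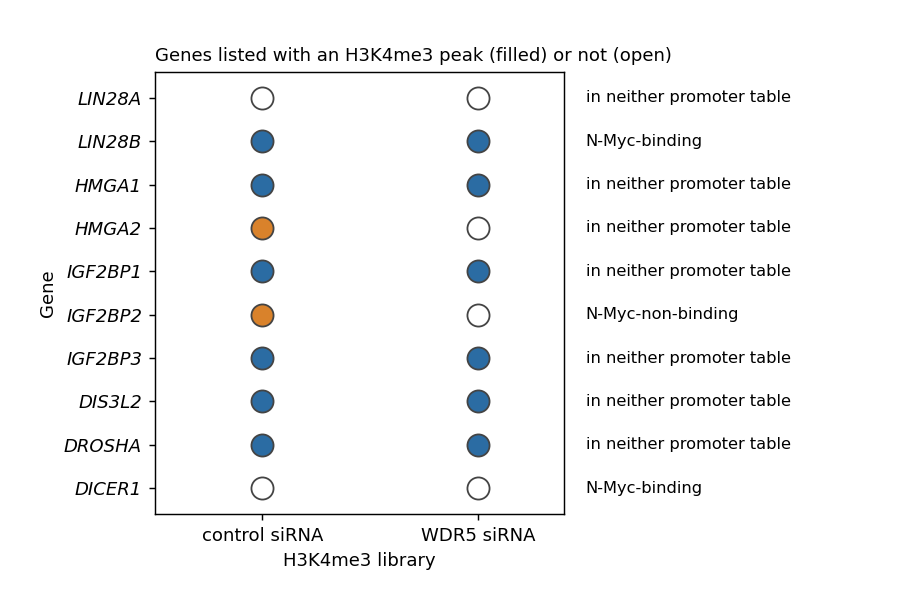
H3K4me3 peak calls of the 10 genes (vertical axis) in the control siRNA and WDR5 siRNA libraries (horizontal axis), with the promoter table of each gene at the right. Filled circles are listed genes, blue for both libraries and orange for control siRNA only, and open circles are genes not listed; HMGA2 and IGF2BP2 are filled in the control column alone.

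The LIN28 paralogs differed in their calls. LIN28A, which is known from embryonic stem cells, was in neither list and in neither promoter table. LIN28B was listed once in each library, so its call was the same with both siRNAs. It shared that call with 90.9% of the N-Myc-binding promoters, the class it belonged to. Its antisense transcript LIN28B-AS1, named LINC00577 in the files, stood next to it in the control list and was also listed in both. ChIP-seq calls carry no strand, and calls at a gene and at a neighbouring antisense start cannot be told apart where 1 peak reaches both. The names on the other side, BVES, BVES-AS1 and POPDC3, were listed in both libraries as well.

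The HMGA genes encode small proteins that bind AT-rich DNA through AT hooks. HMGA1 was listed once with each siRNA. HMGA2 was listed once with control siRNA and was missing with WDR5 siRNA. The control list runs in genome order as far as it was checked. Of its names with a start in a promoter table, 6734 of 6761 consecutive pairs on the same chromosome rose in position. The order of the other names, HMGA1 and HMGA2 among them, was not checked. Among the 5 names on either side of HMGA2 in that list, 1 of 10, TBC1D30, was control-only. The adjacent names MSRB3 and LLPH were listed in both libraries. The surroundings of HMGA1 differed, with 4 of its 10 neighbours control-only, namely ITPR3, MNF1, IP6K3 and the adjacent GRM4. HMGA1 was thus listed with WDR5 siRNA beside a neighbour that was not, and HMGA2 was unlisted there between neighbours that were listed.

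The IGF2BP proteins bind mRNAs such as that of IGF2 and steady or localise them. IGF2BP1 and IGF2BP3 were listed once in each library. IGF2BP2 was listed with control siRNA only. All 10 of the nearest names around IGF2BP2, from VPS8 through SENP2 and TRA2B to DNAJB11, were listed in both libraries. Across the whole control list, 61.8% of 1852 control-only rows had both adjacent rows listed in both libraries, as HMGA2 and IGF2BP2 had. Only 13.5% of all control names were control-only, so such neighbours are frequent for any call. The same share over all control rows was not computed, so 61.8% does not mark out control-only rows. IGF2BP1 had 3 control-only names among its 10 neighbours (TTLL6, PHOSPHO1 and NXPH3) and IGF2BP3 had 1 (FAM221A). IGF2, the mRNA that gave the family its name, was listed in both libraries, and the non-coding H19 beside it was in neither.

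Of the enzymes, DROSHA, the nuclear RNase III, and DIS3L2, the exonuclease, were each listed once in both libraries. DROSHA had 1 control-only name among its 10 neighbours (PRDM9) and DIS3L2 had 2 (ECEL1 and EFHD1). DICER1, the cytoplasmic RNase III, was in neither list. DICER1 nevertheless appeared in the table of N-Myc-binding promoters, of which 5.01% (163 of 3254) were in neither list. The promoter table gives 1 start for DICER1, and RefSeq gives 5 that span 24507 bases. Whether the number of starts has a part in the missing call was not tested.

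The authors' promoter tables held 3 of the 10 genes. LIN28B, with its start at position 105404923 of chromosome 6 (hg19), and DICER1, at position 95608085 of chromosome 14, were N-Myc-binding. IGF2BP2, at position 185542827 of chromosome 3, was N-Myc-non-binding. The other 7 genes were in neither table, so their N-Myc class is not given here. Of the 8 genes with a control peak, 6 were in neither table, and of all control names 50.3% were. Control-only names were 4.18% of the N-Myc-binding promoters with a control peak, 17.9% of the non-binding ones and 15.5% of control names in neither table. IGF2BP2 and HMGA2, the control-only genes, thus fell in the non-binding class and in the names without a class. None of the 3 listed starts had another listed start within 10 kb.

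The rows of the promoter tables follow an order that the headers do not explain. The authors named the tables as quantifying H3K4me3, but the tables used here hold no level. LIN28B stood at row 3239 of 3254 in the N-Myc-binding table, at 99.5% of its length. Of the 2958 promoters of that table listed in both libraries, whose median position was 45.6%, only 7 came later than LIN28B. Among the 65 other rows within 50 of LIN28B, 49 were in neither list, 11 in both, 4 with WDR5 siRNA only and 1 with control siRNA only. The adjacent rows, OXR1 and C1orf27, were both in neither list. The LIN28B call therefore differed from the calls of most promoters near it in the table.

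DICER1 stood in the same stretch, at row 3202 or 98.4% of the table. Of the 100 rows within 50 of it, 84 were in neither list, as DICER1 was, and 11 were in both. The row before it was RPL37, listed in both, and the row after it was HORMAD1, in neither. The median position of the unlisted N-Myc-binding promoters was 97.0%.

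IGF2BP2 stood at row 2984 of 6331 in the non-binding table, at 47.1%. That stretch is where calls in both libraries give way to control-only calls. Of the 100 rows within 50 of IGF2BP2, 52 were listed in both libraries, 47 with control siRNA only and 1 in neither. Of the other control-only promoters of the table, 26.7% came earlier than IGF2BP2, and their median position was 51.5%. The adjacent rows, FBLIM1 and CSPG5, were listed in both libraries.

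**Figure D2:**
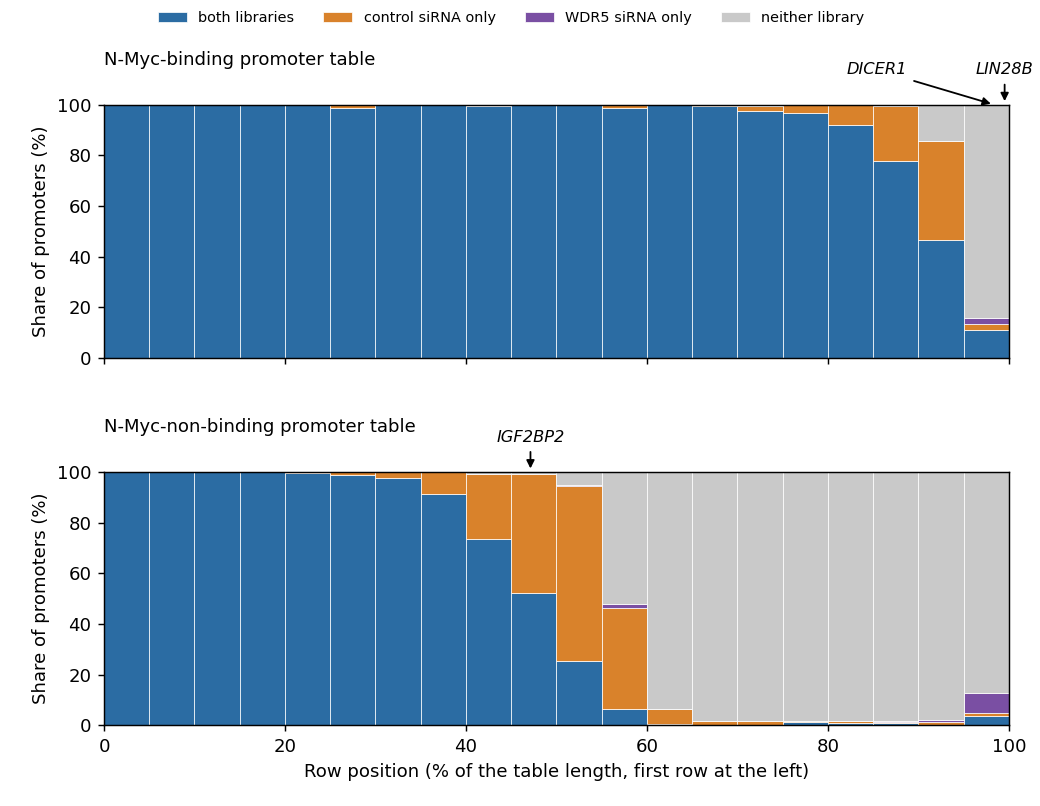
Share of promoters with each peak call (vertical axis, %) in successive bins of 5% of the rows of the N-Myc-binding (upper) and N-Myc-non-binding (lower) tables (horizontal axis, % of table length), with arrows at DICER1, LIN28B and IGF2BP2. LIN28B at 99.5% and DICER1 at 98.4% lie in the last bin, which is mostly unlisted promoters, and IGF2BP2 at 47.1% lies where blue (both libraries) and orange (control siRNA only) are close to even.

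Several of the 10 genes have more than 1 start, and a name in the lists does not say which start carried the peak. RefSeq (GRCh38.p14) gave promoter windows, of 250 bases before to 50 after a start, for 7 of the 10 genes and 14 starts. LIN28A, HMGA2 and IGF2BP1 had none in the table used. LIN28B had 2 windows with starts 16142 bases apart, IGF2BP2 had 2 with starts 3900 bases apart and HMGA1 had 2 with starts 1918 bases apart. Which of these is the hg19 start in the promoter table was not determined.

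Promoter sequences are shown for the genes on which the calls turn. E-boxes were searched as CACGTG, the form preferred by MYC proteins, and as CANNTG, which includes it. Both patterns read the same on the opposite strand, so 1 strand was searched. Capitals mark CACGTG, or, in a window without it, any CANNTG. LIN28B, listed in both libraries and N-Myc-binding, is given with both its windows, at chr6:104940715-104941014 and chr6:104956857-104957156, plus strand.
LIN28B, first start: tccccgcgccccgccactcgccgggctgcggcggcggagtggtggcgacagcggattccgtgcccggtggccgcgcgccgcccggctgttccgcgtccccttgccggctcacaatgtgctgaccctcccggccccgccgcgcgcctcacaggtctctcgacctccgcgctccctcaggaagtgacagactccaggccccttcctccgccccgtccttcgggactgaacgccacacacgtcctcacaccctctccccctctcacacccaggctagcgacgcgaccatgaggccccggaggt
LIN28B, second start: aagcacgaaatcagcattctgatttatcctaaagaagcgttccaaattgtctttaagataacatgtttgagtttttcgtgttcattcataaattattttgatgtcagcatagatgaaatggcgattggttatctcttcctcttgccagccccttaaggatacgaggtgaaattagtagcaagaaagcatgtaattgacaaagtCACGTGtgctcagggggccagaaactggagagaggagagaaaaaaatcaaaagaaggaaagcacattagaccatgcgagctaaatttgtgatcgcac
The first window held no CANNTG at all and had 73.0% GC. The second held 1 CACGTG, whose first base lay at -47 relative to the start, in a window of 39.0% GC.

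The paralogs with different calls are given next, IGF2BP2 (control-only, chr3:185824993-185825292, minus strand, its first start) and IGF2BP3 (both libraries, chr7:23470442-23470741, minus strand).
IGF2BP2, first start: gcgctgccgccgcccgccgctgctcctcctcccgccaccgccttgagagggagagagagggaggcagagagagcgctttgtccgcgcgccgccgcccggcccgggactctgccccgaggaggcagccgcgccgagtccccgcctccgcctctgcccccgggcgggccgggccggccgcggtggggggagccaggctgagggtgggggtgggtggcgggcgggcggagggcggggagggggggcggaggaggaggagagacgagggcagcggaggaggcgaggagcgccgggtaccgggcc
IGF2BP3: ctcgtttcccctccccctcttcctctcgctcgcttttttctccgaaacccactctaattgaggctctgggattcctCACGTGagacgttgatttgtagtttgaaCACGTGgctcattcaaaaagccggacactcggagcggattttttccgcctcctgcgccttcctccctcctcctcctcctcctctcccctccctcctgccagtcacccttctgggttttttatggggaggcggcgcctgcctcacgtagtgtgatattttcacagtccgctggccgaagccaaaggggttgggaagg
The IGF2BP2 window held no CANNTG and had 80.7% GC, above 97.9% of all RefSeq windows. The second IGF2BP2 window had 35.0% GC and no CACGTG. The IGF2BP3 window held 2 copies of CACGTG, at -174 and -146, and had 56.3% GC.

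DICER1, unlisted but N-Myc-binding, is given by the most GC-rich of its 5 windows, number 3 counted from the most upstream start (chr14:95157480-95157779, minus strand).
DICER1, start 3: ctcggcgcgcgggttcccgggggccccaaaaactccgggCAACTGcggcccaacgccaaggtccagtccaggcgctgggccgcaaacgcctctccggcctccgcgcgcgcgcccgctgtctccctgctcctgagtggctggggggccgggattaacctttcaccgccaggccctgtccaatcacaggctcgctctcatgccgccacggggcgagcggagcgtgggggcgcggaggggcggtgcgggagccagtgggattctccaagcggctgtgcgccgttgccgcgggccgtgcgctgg
In this window the letters CAACTG at -211 were the only E-box of the wider pattern, and the CACGTG form was not found. CACGTG was likewise not found in the other 4 DICER1 windows.

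CACGTG was present in 2 of the 14 windows, the second of LIN28B and that of IGF2BP3. HMGA1, DIS3L2 and DROSHA, also listed in both libraries, had it in no window. Over all genes with a window, 12.8% of those listed in both libraries held CACGTG. The share was 10.2% for control-only genes and 6.73% for genes in neither list. RefSeq genes were matched by current symbol only, so a gene listed under an older name counted as unlisted. The 17654 genes in neither list also include RefSeq genes that the deposited data name nowhere. Of all 35116 RefSeq windows, 7.26% held CACGTG and 68.7% held CANNTG. Counted by gene, 18.4% of the N-Myc-binding genes with a window held CACGTG, against 8.0% of the non-binding genes. A match is a run of letters and not a binding site. Over the most upstream windows of the 7 genes, GC ran from 49.7% (DICER1) to 80.7% (IGF2BP2), and the ratio of observed to expected CpG ran from 0.433 (DICER1) to 1.04 (DIS3L2). The medians over all RefSeq windows were 58.7% and 0.579. By call, they were 65.7% and 0.836 for windows of genes listed in both libraries. They were 64.7% and 0.739 for control-only genes and 52.0% and 0.3125 for genes in neither list. The control-only IGF2BP2 (ratio 0.808) had a window above both medians over all windows. The unlisted DICER1 had one too (start 3, 73.7% GC and a ratio of 0.909). LIN28B, HMGA1, DIS3L2 and DROSHA, which were listed in both libraries, had one as well. DROSHA, at 63.0% GC, lay below the GC median for genes listed in both libraries. The window of IGF2BP3, also listed in both libraries, lay below the GC median over all windows at 56.3%. The other windows of DICER1 (34.0 to 52.3% GC), LIN28B, HMGA1 and IGF2BP2 also lay below the GC median over all windows.

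**Figure D3:**
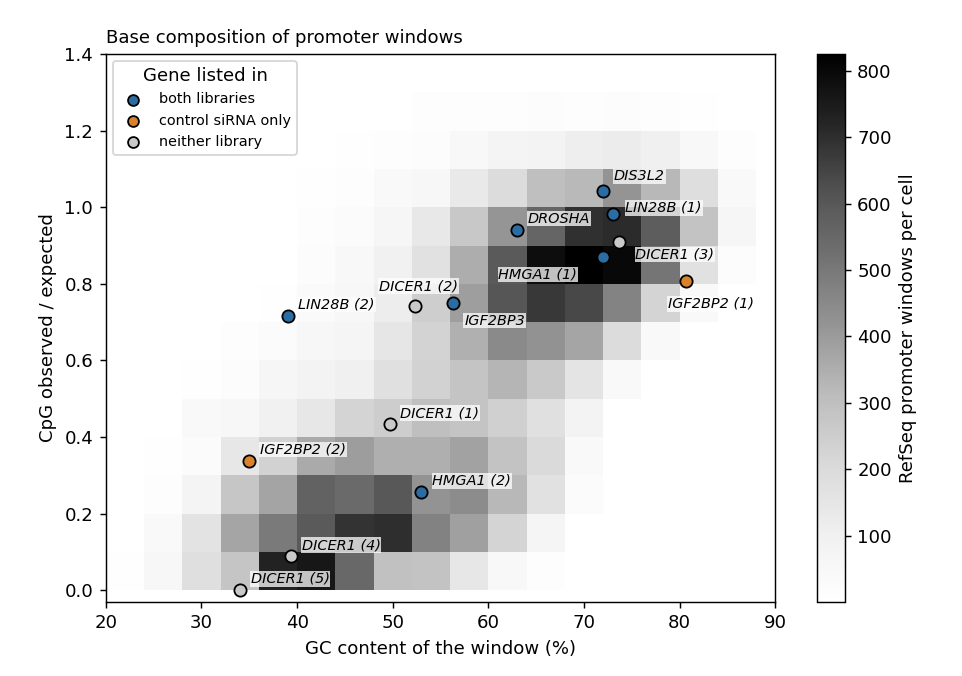
GC content (horizontal axis, %) against the ratio of observed to expected CpG (vertical axis) for the 14 promoter windows of 7 genes, over all 35116 RefSeq windows in grey. Numbers in parentheses count a gene's starts from the most upstream one; IGF2BP2 (1) lies at 80.7% GC, and LIN28B (1) and LIN28B (2) lie at 73.0 and 39.0%.

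Other genes of the same pathways were described from 7 lists holding 100 distinct genes. Of these, 80 were in the control list and the same 80 were also listed with WDR5 siRNA. None was thus control-only, beside 13.5% of all control names. Most names were listed in both libraries. Of all 16500 distinct names, 11870 were listed with WDR5 siRNA, and all but 97 of these with control siRNA as well. The counts per list below are to be read beside these numbers. Of the 100 genes, 34 were N-Myc-binding, 17 were non-binding and the others were in neither table. Of all 16500 distinct names, 3254 were N-Myc-binding and 6331 non-binding. Over all control names of these classes, control-only calls made up 4.18%, 17.9% and 15.5%. The lists were not tested.

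All 14 genes for binding, tailing and decay of let-7 precursors were listed in both libraries. They included ZCCHC11 and ZCCHC6, the uridyltransferases that can tail the LIN28A-bound precursor. TRIM71, a let-7 target known from stem cells, and KHSRP and HNRNPA1, which bind let-7 precursors, were also among them. DIS3 and DIS3L, the relatives of DIS3L2, were listed in both as well. ZCCHC11 was N-Myc-binding at row 1440 and TRIM71 at row 2987.

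All 12 genes of nuclear processing and export were listed in both libraries. DGCR8, the partner of DROSHA, was N-Myc-binding at row 1210, DDX5 at row 37, DDX17 at row 160 and XPO5, which exports precursors, at row 456. In the cytoplasmic list, 17 of 19 genes were listed in both. They included TARBP2 and PRKRA, the partners of DICER1, and the argonautes AGO1, AGO2, AGO3 and AGO4. The exceptions were TNRC6C, a GW182 silencing protein that was N-Myc-binding (row 3171) and in neither list, and PAN2, a deadenylase subunit listed with WDR5 siRNA only. Of all names listed with WDR5 siRNA, 0.817% were listed only there. DICER1 and TNRC6C were thus both unlisted genes near the end of the N-Myc-binding table.

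Of 15 textbook let-7 targets outside the set, 14 were listed in both libraries. They included NRAS, CDC25A, IGF1R and MYCN, the first row of the N-Myc-binding table. The exception was CCND2, which encodes cyclin D2 and was in neither list. Of 12 other high mobility group genes, 11 were listed in both, and HMGN5 was in neither. Of 10 genes for IGF2 and mRNA-binding partners, 9 were listed in both, among them YBX1, ELAVL1 and YTHDF2. HMGA2 and IGF2BP2 were therefore the control-only names among the 10 genes and these 100.

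**Figure D4:**
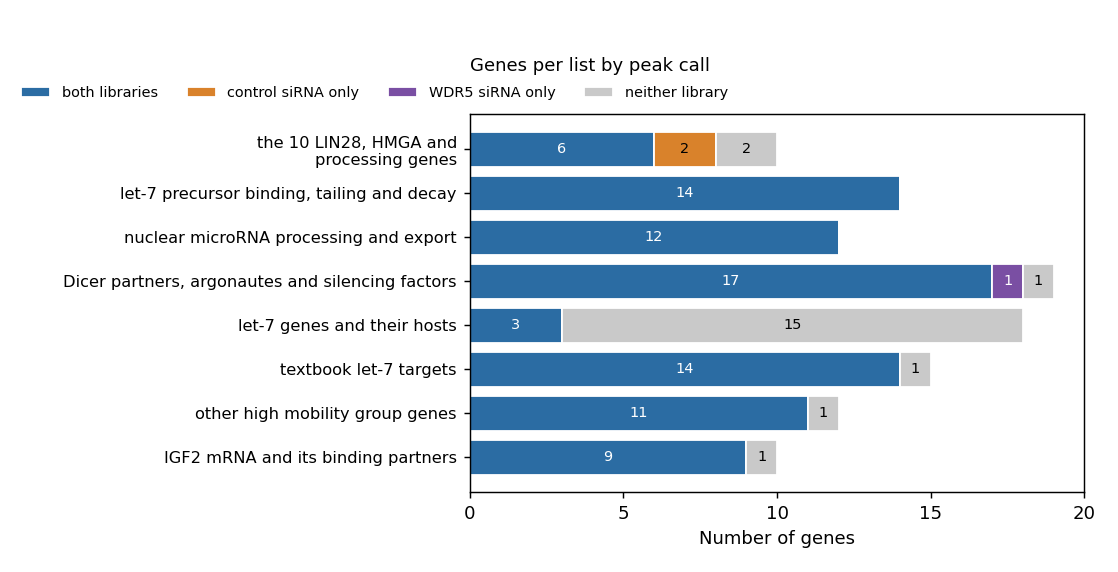
Number of genes (horizontal axis) by peak call for the 10 genes and 7 pathway lists (vertical axis), with counts inside the bars. Orange, control siRNA only, appears in the bar of the 10 genes alone (2 genes), and the let-7 list holds 15 unlisted names, of which 12 are microRNA genes.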

How the data were processed

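H3K4me3 ChIP-seq of BE(2)-C cells gave 1 library per siRNA, each assigned to its group by its title. BWA 0.7.12, bedtools and the build hg19 are named in the submitters' processing notes, which state no role for either tool. The sources used here do not give the peak caller, its threshold and control, or the criterion for N-Myc binding. The 3 deposited files hold gene names and 1 bp start intervals and no measured unit, so the authors' calls could be compared but not levels.

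Names were reduced to distinct names and classed as listed in both libraries, in 1 or in neither. Of the pathway and marker genes, TENT2 was matched by an older symbol (PAPD4). The second coordinate of a start interval was taken as its 1-based position. Promoter and microRNA sequences are from RefSeq (GRCh38.p14), and no coordinate was carried between builds. Members and lists were chosen with earlier results of these data known. The named genes are the 10 members, every gene of a pathway list listed in 1 library only, further genes of each list, the rows adjacent to a member in its promoter table and any listed start within 10 kb. The neighbours in the control list, the row windows and the comparison of RefSeq starts were added after the data were seen. A planned comparison of protein sequences was not run. The code that classes names was tested on simulated lists. Computation used Python 3.11.15, pandas 2.3.3, numpy 2.4.6, scipy 1.17.1 and matplotlib 3.10.9.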

Additional observations from a re-analysis of the deposited data

How the results depend on the processing

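Leaving out a replicate was not possible, since each siRNA had 1 library. Taking only names in either promoter table gave a control-only share of 11.6% over all control names in place of 13.5%, and left 1 control-only gene (IGF2BP2) of 2 with a control peak (LIN28B and IGF2BP2), because HMGA2 is in neither table. Single-row names, rows as deposited and names matching RefSeq left the share within its interval over genes, and older symbols or single-row names left the count of 2 control-only genes. Row positions were recomputed without starts that had another listed start within 2 kb, and GC without the 50 bases after the start. None of the 17 values moved beyond its 95% binomial interval, and 2 windows kept CACGTG. These checks could show little, since the shorter windows are part of the full ones and every CACGTG lay before the start. A row position is a rank, and a binomial interval does not measure its spread. Depth is unknown, so a missing call does not show absence of H3K4me3, and a call in both libraries can hide a difference in level.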

Other observations

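The share of genes with distant alternative starts was compared by call after DICER1 had been seen in neither list. In the N-Myc-binding table, RefSeq starts more than 1 kb apart were found for 57 of 125 genes in neither list (45.6%), 16 of 96 control-only genes (16.7%) and 263 of 2349 genes listed in both libraries (11.2%). In the non-binding table, the shares were 19.01% of 1978 unlisted genes, 22.9% of 468 control-only genes and 17.8% of 2328 genes listed in both. The share was thus higher for unlisted genes than for the other calls given here in the N-Myc-binding table, where DICER1 is found, and lay between them in the non-binding table. These are counts over genes matched to RefSeq by current symbol, and the difference was not tested.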
